A study of Drosophila melanogaster with 3 samples.

Results

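The peaks described here are the 877 Antp-eGFP binding peaks on the Drosophila melanogaster X chromosome. They are all the X entries of a deposited list of 4351 reproducible peaks in the assembly dm6, and no measured value was used to choose them. They were set against the 2679 peaks of the same list on the autosomal arms 2L (809 peaks), 3L (840 peaks) and 3R (1030 peaks). Antp-eGFP is Antennapedia, a Hox transcription factor, carrying enhanced green fluorescent protein, and its sites were mapped by chromatin immunoprecipitation and sequencing (ChIP-seq) with an antibody against GFP. There is 1 group of 3 biological replicates: whole embryos of the AntP-MiMIC-GFP line, aged 0 to 24 h, with both sexes pooled, and every replicate carries the fusion. The tag is an exon placed in an intron of Antp itself, so the fusion is made wherever the tagged gene is active, and whole embryos mix all cell types. A separate label gives Antp as the antibody, but the description of the pulldown was followed. Fragments were 200 to 800 bp long after sonication. Peak strength below is the deposited signal, which sets a peak against its control and was compared within lists only. The read depth behind it is unknown.

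Hox proteins bind short AT-rich sites through their homeodomain and give body segments their identity, Antennapedia that of the thorax. The X is the sex chromosome of the fly, carried singly by males and as a pair by females. In males the MSL complex, built of proteins and the non-coding RNAs roX1 and roX2, spreads over the X and raises the output of its genes. It enters the X at sites with GA repeats. Embryos of both sexes were pooled. The copy number of X per library was not measured, and its part in the results below was not tested.

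Sequences at 7 of the strongest X peaks are shown because introns, where 6 of them lie, set the X apart in the comparisons that follow. Capitals mark the core CAGTG, on the other strand read as CACTG, which is held by the 2 6-letter words with the greatest excess at X intronic summits over their flanks. They are the peak at the Ugalt promoter and the 6 strongest intronic X peaks. Each is the RefSeq dm6 sequence of the plus strand, written 5′ to 3′, and holds no untranslated region and no exon. The intronic ones run 100 bp to either side of the summit and the Ugalt one is shorter, so as to stop before the transcript.
Ugalt promoter (X:2703853-2703986, RefSeq dm6, plus strand): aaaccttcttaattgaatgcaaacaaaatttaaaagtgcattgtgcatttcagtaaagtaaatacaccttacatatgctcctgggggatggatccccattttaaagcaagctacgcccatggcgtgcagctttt
CG32772 intron (X:4910256-4910456, plus strand): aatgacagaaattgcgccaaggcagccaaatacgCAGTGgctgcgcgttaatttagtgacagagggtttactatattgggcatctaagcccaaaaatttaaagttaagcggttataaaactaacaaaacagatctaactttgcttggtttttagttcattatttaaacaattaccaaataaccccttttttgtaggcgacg
Raf intron (X:2297624-2297824, plus strand): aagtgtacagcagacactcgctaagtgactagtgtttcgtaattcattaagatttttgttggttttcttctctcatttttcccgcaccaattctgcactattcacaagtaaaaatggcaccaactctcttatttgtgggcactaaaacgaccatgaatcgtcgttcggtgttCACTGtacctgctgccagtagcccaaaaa
CG3726 intron (X:5918812-5919012, plus strand): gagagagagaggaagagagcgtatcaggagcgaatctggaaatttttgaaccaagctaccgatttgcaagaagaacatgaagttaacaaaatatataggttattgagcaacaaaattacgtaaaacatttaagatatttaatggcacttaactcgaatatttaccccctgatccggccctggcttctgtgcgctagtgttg
Tlk intron (X:3742136-3742336, plus strand): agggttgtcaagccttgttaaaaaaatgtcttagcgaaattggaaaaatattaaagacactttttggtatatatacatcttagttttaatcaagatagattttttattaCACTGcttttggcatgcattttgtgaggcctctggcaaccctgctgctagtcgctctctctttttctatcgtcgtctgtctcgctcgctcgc
Zw intron (X:19668510-19668710, plus strand): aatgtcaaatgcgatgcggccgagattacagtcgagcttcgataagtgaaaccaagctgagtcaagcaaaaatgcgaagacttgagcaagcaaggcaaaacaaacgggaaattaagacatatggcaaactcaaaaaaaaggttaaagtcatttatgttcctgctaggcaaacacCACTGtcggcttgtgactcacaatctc
NFAT intron (X:13640415-13640615, plus strand): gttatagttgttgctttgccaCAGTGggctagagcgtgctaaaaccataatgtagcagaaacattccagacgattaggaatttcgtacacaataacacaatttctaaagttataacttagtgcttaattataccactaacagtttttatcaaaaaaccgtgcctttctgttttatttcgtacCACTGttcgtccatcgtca
The core occurs in 5 of the 6 intronic windows, with 2 copies at NFAT, and is missing from the windows at Ugalt and CG3726.

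The X carried more Antp-eGFP peaks per unit of sequence than the arms did, and the excess lay in introns. There were 37.4 peaks per Mb on X, against 32.1 per Mb on the arms, where 2L had 34.4, 3L had 30.01 and 3R had 32.1. The ratio of X to the arms was 1.17 (95% exact interval 1.08 to 1.26; exact binomial test, two-sided, p = 1.08e-04). Against single arms the ratio in the same exact test was 1.24 over 3L (p = 5.80e-06) and 1.16 over 3R (p = 0.00108), but 1.09 over 2L (interval 0.986 to 1.20, p = 0.0929), so the excess over 2L did not pass the threshold of 0.05. These tests treat peaks as independent. Neighbouring peaks are not, so the p-values are too small, and the spread of the arms and of the replicates is given beside them. In the 2175 strongest peaks of the list the ratio was 1.10 and did not pass (exact binomial p = 0.0903).

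Intronic peaks reached 14.9 per Mb on X and 9.10 per Mb on the arms, where the lowest arm had 8.32 and the highest 9.55. The ratio was 1.64 (1.44 to 1.86; exact binomial test, adjusted p = 9.46e-13 over the 7 classes of position). Promoter peaks, whose summit lies at most 500 bp from a transcription start site (TSS) of the gene models, did not differ past the threshold, with 18.1 per Mb on X and 18.0 per Mb on the arms (ratio 1.01, 0.903 to 1.12, exact binomial p = 0.869). The X is richer in intronic sequence, which makes up 43.5% of X and 39.2% of the arms (36.5% of 2L, 37.1% of 3L and 43.1% of 3R). Counted per Mb of intronic sequence, X still had 34.3 intronic peaks and the arms 23.2. The lowest arm had 22.1 and the highest 25.8, and the ratio of X to the arms was 1.48 (1.30 to 1.68; exact binomial test, adjusted p = 2.42e-08). Per Mb of promoter sequence, X had 143 promoter peaks and the arms 132, with 140 on the highest arm. That ratio was 1.09 and did not pass (0.972 to 1.21; exact binomial test, adjusted p = 0.318).

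**Figure D1:**
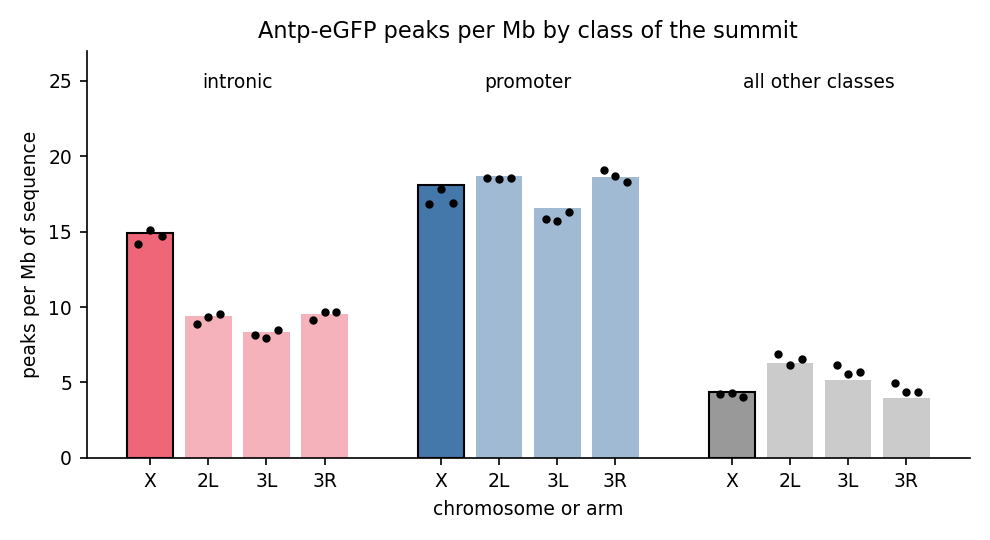
Peaks per Mb of sequence on X, 2L, 3L and 3R for intronic summits, promoter summits and all other classes. Bars are the reproducible list and points are the 4351 strongest entries of replicates 1, 2 and 3. In the intronic class the X bar stands at 14.9 and the highest arm at 9.55, with no overlap of the replicate points, whereas promoter bars lie between 16.5 and 18.7.

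As shares of the peaks, introns held 39.9% of X peaks (350 of 877; 95% interval 36.6 to 43.2) and 28.4% of arm peaks (760 of 2679; 26.7 to 30.1), and no arm was above 29.7%. The odds ratio was 1.68 (Fisher's exact test, two-sided, adjusted p = 1.94e-09 over 7 classes). Promoters held 48.5% of X peaks and 56.0% of arm peaks (54.4 to 58.0 over the arms; Fisher's exact test, adjusted p = 2.58e-04), which follows from the same counts. Intergenic peaks made up 8.10% on X and 13.2% on the arms (Fisher's exact test, adjusted p = 1.47e-04), but 3R had 9.71%, and per Mb of intergenic sequence the X and the arms did not pass the test (13.5 on X, 15.1 on the arms, adjusted p = 0.581). Coding sequence held 5 X peaks, 5′ UTRs held 6 and other exons held 6.

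A small class went the same way as introns. Summits in 3′ UTRs numbered 14 on X (1.60%) and 13 on the arms (0.485%), with an odds ratio of 3.33 (Fisher's exact test, adjusted p = 0.00440). Per Mb of 3′ UTR the difference missed the threshold (10.1 on X, 3.79 on the arms, exact binomial test, adjusted p = 0.0596). The strongest, named after its values were seen, lay at X:15579669 to 15579921 in CG7872, with a signal of 713 and ranks of 143, 153 and 199 in replicates 1, 2 and 3.

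Each replicate showed the intronic share by itself. Among the 4351 strongest entries of its own list, introns held 40.2%, 40.6% and 41.2% of X entries in replicates 1, 2 and 3, and 26.8%, 28.3% and 28.5% of arm entries. The groups did not overlap, and the difference was 12.8 ± 0.535 percentage points (SD, n = 3; exact sign-flip permutation p = 0.25, two-sided, the smallest that 3 replicates allow). The density of all X entries was 35.3, 37.3 and 35.7 per Mb against 32.5, 31.9 and 32.3 per Mb on the arms, so that the ratio was 1.09, 1.17 and 1.10. Intronic entries alone had 14.2, 15.1 and 14.7 per Mb on X and 8.72, 9.02 and 9.23 per Mb on the arms. The replicates share the line and the assay, and the reproducible list was made from them, so they are no independent second study.

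Among weaker entries the X was thinly covered. Below rank 4351 of each list of 30000 entries, which the deposited description calls peaks and background, X had 157, 168 and 164 entries per Mb in replicates 1, 2 and 3, and the arms had 204, 201.1 and 202. The X to arm ratio was 0.773, 0.837 and 0.814 there, below 1 in all 3 replicates, where it was above 1 among the strongest entries. X made up 23.4%, 24.7% and 23.6% of the strongest entries on these 4 chromosomes and 17.8%, 19.05% and 18.6% of the weaker ones, while it holds 21.9% of their sequence. The difference was 5.40 ± 0.322 percentage points (SD, n = 3; exact sign-flip permutation p = 0.25, the smallest possible). The step came between ranks 2001 to 4351 (22.3%, 24.9% and 23.8%) and ranks 4352 to 10000 (17.7%, 19.3% and 19.4%). In weaker entries introns held 32.0%, 37.4% and 33.2% on X and 28.4%, 32.3% and 30.5% on the arms, so the intronic gap was narrower there. Whether the copy number of X in mixed-sex embryos takes part in this step was not tested.

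**Figure D2:**
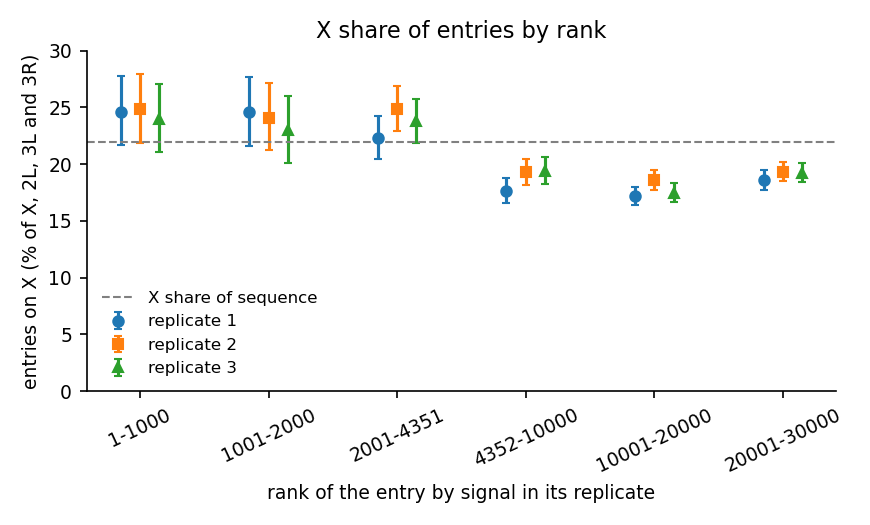
Share of entries on X, in percent of the entries on X, 2L, 3L and 3R, by rank of signal within each replicate. Points are replicates, bars are exact 95% binomial intervals over entries, and the dashed line is the X share of the sequence (21.9%). All 3 replicates lie above the line down to rank 4351 and below it from rank 4352.

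Peak strength on X did not differ from that on the arms past the threshold. The median signal was 165 on X and 173 on the arms (170 to 177 over the arms), and 47.4% of X peaks were above the arm median (Fisher's exact test, adjusted p = 0.299 over 3 classes). For intronic peaks alone the medians were 170 on X and 164 on the arms, and 52.3% of X intronic peaks were above the arm median (46.9 to 57.6; Fisher's exact test, adjusted p = 0.518). The sign of the difference over all peaks turned in the mean of the replicates (0.276 percentage points higher on X). X holds 20.2% of the whole list, and of its 100 strongest peaks 23 were on X and of its 435 strongest 87 were, both close to that share. X peaks in introns recurred well: 69.1% of them (64.0 to 73.9) had a summit within 100 bp among the strongest entries of all 3 replicates, as did 59.7% of arm intronic peaks (56.2 to 63.2), 62.6% of X promoter peaks and 65.9% of arm promoter peaks. The list was derived by agreement between replicates, so these shares describe it and are no independent measure.

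The intronic peaks were spread over many genes. On X 182 of 1880 protein-coding genes with an intron hosted an intronic summit (9.68%; 8.38 to 11.1), against 486 of 7420 on the arms (6.55%; 6.30% to 6.70% by arm). The odds ratio was 1.53 (Fisher's exact test, adjusted p = 1.26e-05 over 2 tests of this kind, both added after the data were seen). X has more intronic sequence and fewer coding genes per Mb than the arms together, and the part of intronic sequence per gene in this share was not tested. Of the X hosts 105 had a single intronic summit and 36 had 3 or more. Without the 10 genes with most intronic summits on each chromosome the ratio per Mb of intron was 1.48, as with them. Summits in first introns made up 63.9% on X and 71.8% on the arms (Fisher's exact test, odds ratio 0.694 and adjusted p = 0.0102). First introns make up 47.5% of intronic sequence on X and 41.7% on the arms, with 47.6% on 2L, 42.0% on 3L and 37.7% on 3R. The median distance of an intronic summit from its nearest TSS was 2450 bp on X and 2455 bp on the arms, and the median host intron was 10151 bp long on X and 10214 bp on the arms. Measures of distance and intron length therefore lay close together, while the share of genes that hosted a summit and the order of the intron did not.

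The telomere side of the X was the denser one. Cut at the midpoint of its sequence, X had 46.3 peaks per Mb on the telomere side and 28.4 on the centromere side. The arms had the same slope, with 43.1 and 25.7 on 2L, 39.6 and 20.4 on 3L, and 35.9 and 28.3 on 3R. Per Mb of intron, X had 40.6 intronic peaks on the telomere side, where the arms had 26.3 to 30.5, and 26.2 on the centromere side, where the arms had 15.4 to 20.9. X thus stood above each arm on both sides, as a description without a test. Counted per Mb along X, the densest block was the seventh, with 67 peaks and 110 coding genes starting in it. The block next to the last held 3 peaks with 46 coding genes, and the last, incomplete one held 1 peak. The longest stretch of X without a peak was 824014 bp.

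**Figure D3:**
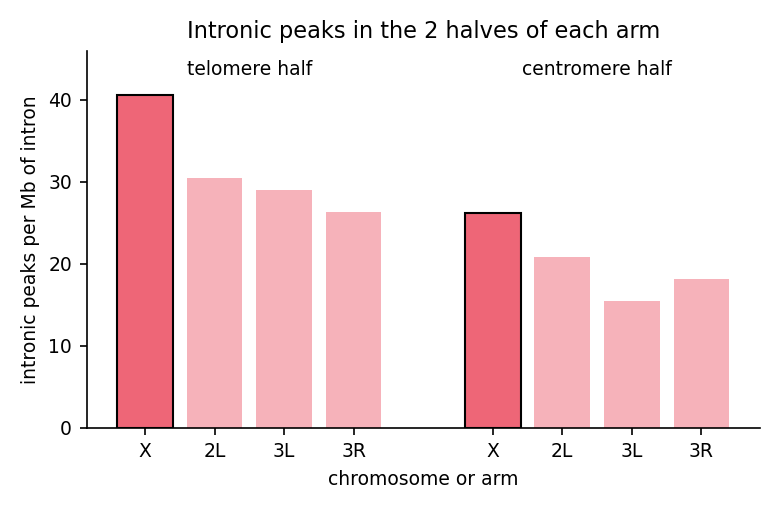
Intronic peaks per Mb of intronic sequence on X, 2L, 3L and 3R, on the telomere side and the centromere side of the midpoint of each. X is the highest on both sides, at 40.6 and 26.2, and every chromosome is denser toward its telomere.

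Neighbouring summits were somewhat closer on X. Gaps shorten where peaks are denser, as they are on X, and the part of density in the gaps was not tested. Gaps under 2 kb made up 19.5% of the 876 gaps on X (16.9 to 22.3) and 15.6% of the 2676 gaps on the arms (Fisher's exact test, two-sided, p = 0.00763, odds ratio 1.31), but 2L had 18.8%. The difference did not pass the same exact test without 3R (p = 0.0796). In the replicates' own strongest entries it was 2.58, 4.31 and 1.46 percentage points in replicates 1, 2 and 3 (exact p = 0.0906, 0.00358 and 0.346), so it passed in replicate 2 only.

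Among the strongest peaks the X holds the first of the whole list. The Ugalt peak, at the promoter of a gene for a UDP-galactose transporter, had its summit 34 bp from the TSS and a signal of 4656. Its signal in the replicates' own lists was 1479, 1551 and 1659, first of 30000 each time. The second X peak (signal 2408, X:2137143 to 2137597) lay inside ph-p, a Polycomb group gene whose protein is part of a repressive chromatin complex, 474 bp from a TSS, with ranks of 13, 8 and 10. The summit at MFS10, a transporter of the major facilitator family (1979, X:13131150 to 13131551), was 160 bp from its TSS, and that at Atf3, a bZIP transcription factor (1752, X:1275285 to 1275720), 204 bp from its TSS.

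Of the 15 strongest X peaks 6 were intronic. The intronic one in CG32772 (signal 1933) ranked 23, 19 and 21 in the replicates. In Raf, a kinase of the receptor tyrosine kinase pathway, the strongest peak (1829) lay 2258 bp from the TSS with ranks of 21, 23 and 28. Those in CG3726 (1467), Tlk (1437; Tousled-like kinase, which acts in chromatin assembly), Zw (1246; glucose-6-phosphate dehydrogenase) and NFAT (1242; a calcium-regulated factor in mammals) ranked between 38 and 59 in every replicate. The Zw summit is nearest to the TSS of the antisense gene asRNA:CR44512, 864 bp away. Promoter peaks near moody (1451; a G-protein coupled receptor of glia at the blood-brain barrier), CG17896 (1300) and TRAM (1294; a protein of translocation into the endoplasmic reticulum) were next to them in strength. A pair of peaks near the start of lncRNA:CR44619, with signals of 1463 and 1375, lay on either side of it, the weaker one inside lncRNA:Vinr. Every one of the 15 had a matching summit within 100 bp in each replicate.

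**Figure D4:**
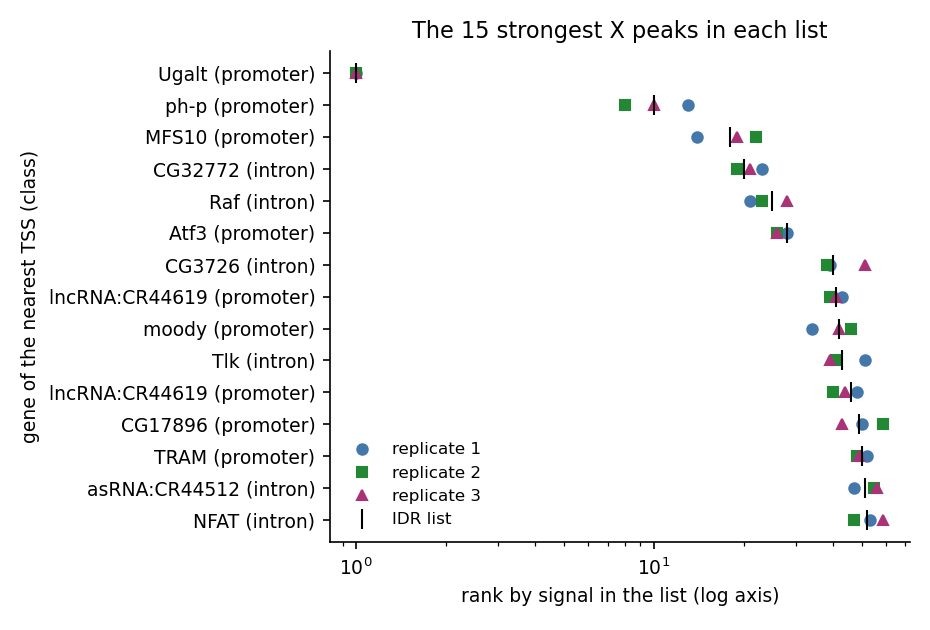
Rank by signal (log axis) of the 15 strongest X peaks in the reproducible list and in each replicate's list, by the gene of the nearest TSS, strongest at the top. Ugalt has rank 1 in every list, and no replicate rank of the others is above 59. Black ticks are the reproducible list (IDR list in the legend).

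Several X genes held many summits. The genes lncRNA:CR44357 with 17 and CG1677 with 14 overlap and share 14 of them. Inside them lie shorter genes that are nearer to the summits, among them brk, which encodes a repressor of Dpp targets, unc-119, Atg5 and CBP. The strongest of these summits, 281 bp from the TSS of CBP, had a signal of 830 and ranks of 141, 101 and 102. In kirre, an adhesion gene of myoblast fusion with a span of 394149 bp, 13 summits had signals of 106 to 599. Some of them lay nearest to the TSS of other genes. These were Syx4 (404 and 441, both promoter summits), CG32795 (333 and 271), rst (142) and CG4116 (319 and 146). Raf held 12 summits in 48405 bp, with signals of 107 to 1829, of which 10 were intronic. The forkhead gene CHES-1-like held 9 in 27048 bp, 7 of them intronic, with signals of 182 to 576. Hr4, a nuclear receptor of the ecdysone cascade, held 9 with signals of 125 to 881, 8 of them intronic. Of the 2196 X coding genes 1856 held none inside the span.

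Per gene, the difference between X and the arms was small and changed with the way of counting. Of the X coding genes 711 of 2196 had a summit in the span or within 1 kb, a share of 32.4%, against 2638 of 8817 on the arms, a share of 29.9% (27.7 to 31.8 by arm). The odds ratio was 1.12 (Fisher's exact test, two-sided, p = 0.0258). In the same exact test the call was lost without 2L (p = 0.198) and in the 2175 strongest peaks, where the sign turned (p = 0.780). In the replicates' own strongest entries the difference was 1.42, 2.47 and 1.44 percentage points in replicates 1, 2 and 3 (exact p = 0.192, 0.0257 and 0.192), so it passed in replicate 2 only. Counted inside the span only, the difference in the IDR list was 4.24 percentage points (Fisher's exact test, p = 1.06e-07). By nearest TSS only it was 4.14 points (Fisher's exact test, p = 2.59e-05). The median span of coding genes was 2521 bp on X and 2080 bp on the arms, and the part of gene length was not tested. X has 93.5 coding genes per Mb, fewer than the arms with 106, so there were 39.9 X peaks and 30.4 arm peaks per 100 coding genes (30.1 to 30.7 by arm). Of the 543 X non-coding genes, pseudogenes left out, 87 had such a summit, or 16.0%. The shares 32.4% and 16.0% are the background for the lists that follow. These lists were chosen with results of these data known and are counted without a test. They differ in gene length, with a median span of 1188.5 bp for cuticle protein genes and 54513 bp for ion channels, synapse and phototransduction. The part of gene length was not tested for any list. A summit within 1 kb of several genes counts for each. Listed symbols not matched on X, which are phm and ecd (ecdysone), dalao and e(y)1 (chromatin) and dec-1 (ovary), are left out of the counts.

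Genes of dosage compensation and sex determination had a summit in 4 of 8. At roX1 the summit (X:3862473) lay 48 bp from a TSS of the gene, with a signal of 119, and its ranks of 4699, 2814 and 3817 in the replicates place it near the edge of the list. At roX2 the summit (X:11580480) lay 48 bp past the 3′ end of the gene and 292 bp from the TSS of nod, a kinesin gene, with a signal of 275 and ranks of 1718, 857 and 953. Both roX peaks were thus far from the strongest, at positions 738 and 221 among the 877 X peaks. Sxl, the master switch of sex, held an intronic summit with a signal of 342 and a promoter summit with a signal of 299, and snf, a splicing factor, had 1 at its promoter with a signal of 217. The genes run, upd1 and sisA, which count X chromosomes in the early embryo, and mof, the histone acetyltransferase of the MSL complex, had none.

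Developmental regulators differed from list to list. Of the 16 patterning transcription factors 3 had a summit: the homeodomain genes ct (signal 425) and Lim1 (311) and the LIM-only gene Bx (246), with the strongest summit of each in an intron. The longest without were disco-r and sd, and exd, the homeodomain partner of Hox proteins, named here for that role after its value was seen, had none either. Of the 8 genes of the achaete-scute complex and neural fate, elav (597), N (443; the Notch receptor) and dx (123) had one. The genes ac, sc, l(1)sc, ase and vnd had none. The dx summit lies outside the gene, 5 bp from the TSS of RpL7A, and had no match in replicate 2. It counts again for dx among the signalling genes and for RpL7A among the ribosomal ones. Among 16 signalling genes 9 had one, led by Raf, mnb (691), sgg (662; the fly GSK3 kinase) and sog (508; a BMP antagonist), and arm and pcx were the longest without. Of the 4 ecdysone genes matched to the gene models Hr4, br (344) and usp (274; the partner of the ecdysone receptor) had one and Cyp18a1 did not.

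A mixed list of chromatin genes held general factors beside members of the Polycomb and trithorax groups. Of its 14 genes 10 had a summit, or 71.4%, against the background of 32.4%. Their median span was 9008 bp, against 2521 bp over all X coding genes, and the part of gene length was not tested. The tandem pair ph-p (2408) and ph-d (431), Smr (379; a corepressor) and fs(1)h (350; a BET protein) were the strongest. The longest without were e(y)3 and Rbf. The summit of 350 lies outside fs(1)h, 45 bp from the TSS of its neighbour mys, and the one inside fs(1)h had a signal of 239. Cytosolic ribosomal protein genes had one in 14 of 14. They are short, with a median span of 1603 bp, and the summits counted for them lay 5 to 112 bp from the nearest TSS with signals of 111 to 374. For RpS6 and RpS19a that TSS belongs to a neighbour, bys and Rok. RpS28b (374), RpS5a (331), RpL17 (312) and RpL22 (278) were the strongest. The duplicates RpS14a and RpS14b share a summit and can share reads, so they are uncertain as separate members. All 4 sugar metabolism genes had one, namely Zw, Gapdh2 (423), Hex-A (364) and Pgd (132). Of 6 genes listed for the cell cycle, fzr (1166), baz (333; a cell polarity gene), Cdk7 (217), CycD (127) and Klp3A (104) did. The fzr summit is 297 bp from the TSS of CG3009, its neighbour, and the summits of Cdk7 and snf are the same.

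At the other end, none of 25 odorant, gustatory and ionotropic receptor genes and none of 4 cuticle protein genes had a summit. Their median spans were 1872 and 1188.5 bp, shorter than the 2521 bp of all X coding genes. Or10a and Gr10a, annotated over the same span, were the longest of the first list and Cpr11A and Cpr12A of the second. Of 6 proteasome genes Prosalpha4 had one (106), 1 bp from the TSS of kat80, and of 12 genes for ovary, yolk and chorion sn (170) and fs(1)N (125) did. The classical visible markers had one in 4 of 16: ec (254), Bx, sn and rb (164). The rb summit lies outside the gene, 121 bp from the TSS of CHOp24. Genes for ion channels, synapse and phototransduction had one in 7 of 15. The strongest were at dnc (1101; the cAMP phosphodiesterase), norpA (962; phospholipase C of phototransduction), shakB (244) and rdgA (154). The shakB summit lies outside the gene, nearest to the TSS of lncRNA:CR43838, and the rdgA summit lies 122 bp from the TSS of CG10962. Sh and nAChRalpha3, with spans of 138941 and 90970 bp, had none. Genes of muscle and adhesion had one in 4 of 8, Act5C (699), kirre, and the integrin genes mys (350) and if (345), while rst and shi had none. The mys summit is the one counted for fs(1)h. Those of Act5C and if lie outside these genes, nearest to the TSS of lncRNA:CR45668 and of goe. Of the small RNA genes, pseudogenes left out, 2 of 24 for transfer RNA, 6 of 30 for small nucleolar RNA and 4 of 58 for microRNA had one, against 16.0% of X non-coding genes. Many of these summits sit at the promoter of a coding neighbour, such as RpL17, which accounts for 1 transfer RNA and 1 small nucleolar RNA.

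None of the 10 motifs searched at the summits differed between X and the arms past the threshold. Windows reaching 100 bp to either side of the summit on X and on the arms were searched on both strands, and 0 of 10 motifs passed (Fisher's exact test, two-sided, lowest adjusted p = 0.637; 0 of 10 had an unadjusted p under 0.05). The GA repeat GAGAGAGA was in 2.51% of X windows and 1.98% of arm windows, and in 2.91% of X flanks centred 1 kb away and 1.54% of tiles of the same length over all of X. The Hox core (TAAT, then G or T, then A or G) was in 41.2% of X windows (37.9 to 44.5) and 39.5% of arm windows, with 37.1% in X flanks, 39.5% in arm flanks and 39.9% of X tiles. The Hox and Exd site TGATNNAT was in 11.4% on X and 12.3% on the arms. The promoter element DRE (TATCGATA), which contains the BEAF-32 core CGATA, was in 4.90% on X, against 4.67% on the arms and 0.706% of X tiles, and the BEAF-32 core was in 34.5% and 32.5%. At promoter summits alone the BEAF-32 core was in 46.8% on X and 40.1% on the arms (Fisher's exact test, adjusted p = 0.141). The remaining motifs were Ohler1 (GGTCACAC; 2.85% on X, 2.80% on the arms), GAGAG (24.2%, 25.8%), CACACACA (5.25%, 3.84%), the Zelda site CAGGTA (4.68%, 3.92%) and the E-box CACGTG (2.51%, 2.87%). In wider windows of 250 bp to either side 2 motifs passed Fisher's exact test, the CA repeat, which was 7.67 percentage points higher on X (adjusted p = 4.06e-07), and the Hox and Exd site, which was 4.93 percentage points lower (adjusted p = 0.0213). CA repeats are also commoner in X sequence as such, at 5.77% of X tiles and 3.79% of arm tiles.

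A word outside the fixed motifs marked the X intronic summits. Counting all 6-letter words after the data were seen, and so with no test, the word with the greatest excess over flanks 1 kb away was ACAGTG, in 29.4% of X intronic summit windows and 9.86% of their flanks. The next was CAGTGC, in 25.4% and 7.71%. Both hold the core CAGTG. That core was in 59.4% of X intronic windows (208 of 350; 54.1 to 64.6), in 30.1% of their flanks and in 27.9% of X intron tiles. It was no property of the X alone, since 59.7% of arm intronic windows held it (56.2 to 63.2). At promoters it was in 55.5% of X windows (50.7 to 60.3) and 47.9% of arm windows (45.4 to 50.5), with arms from 43.4% on 3R to 53.0% on 2L. In the replicates' own strongest entries the X promoter share was 57.6%, 56.3% and 56.2% and that of the arms 48.6%, 46.9% and 47.6%. Of the 117 strongest X intronic peaks 70.9% held the core (61.8 to 79.0), of the 117 in the middle 51.3% and of the 116 weakest 56.0%, so the share did not fall steadily with signal.

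At intronic peaks the core was commoner beside the summit than under it. In bins of 40 bp along X intronic peaks it was in 35 of 350 peaks in the bin at the summit, in 23.7% of the bin centred 80 bp before and in 23.1% of the bin centred 80 bp after it. On arm intronic peaks the counts were 82, 152 and 145 of 760, so that the shoulders were there as well. At X promoters the profile was flatter, with 13.2% at the summit and at most 16.0% in a bin, and arm promoters had their highest bin at the summit, with 14.5%. The Hox core showed no such shoulders, at 13.7% of X intronic peaks in the summit bin, 12.6% in the bin 80 bp before and 9.43% in the bin 80 bp after. In the printed NFAT window the capitals likewise lie toward both ends, whereas in the Tlk window they lie close to the middle.

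**Figure D5:**
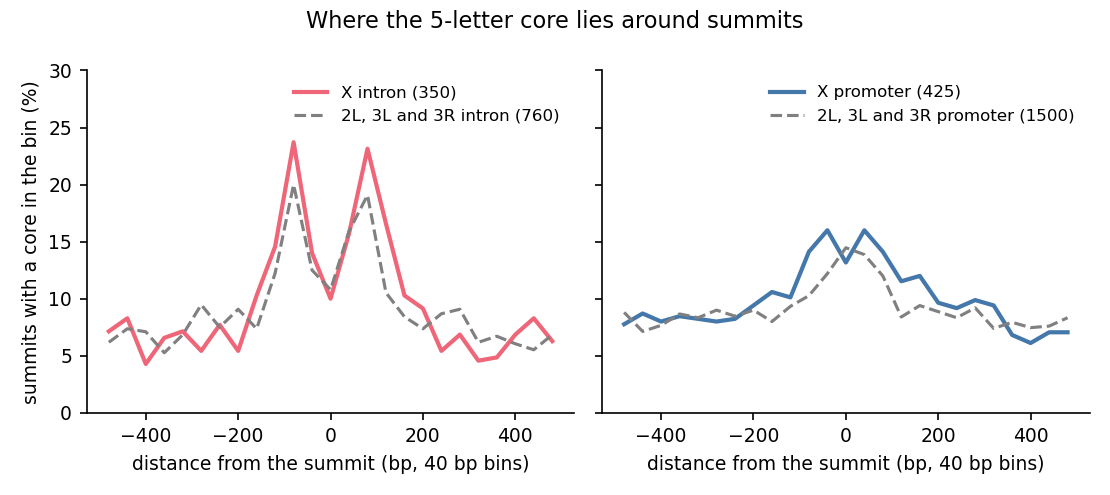
Share of summits, in percent, with the 5-letter core centred in each 40 bp bin, by distance from the summit on the plus strand, for intronic peaks (left) and promoter peaks (right) of X and of 2L, 3L and 3R, with the number of summits in the legends. X intronic peaks show a pair of shoulders at 80 bp to either side (23.7% and 23.1%) around a low at the summit (35 of 350 peaks), and arm intronic peaks show them too.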

How the data were processed

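Peak lists of an Antp-eGFP ChIP-seq experiment on whole embryos (3 biological replicates, 1 group) were used in the assembly dm6. Per the deposited file descriptions, peaks were called from alignments against a control, each replicate list and the pooled list hold 30000 ranked entries of peaks and background, and the reproducible list was derived by irreproducible discovery rate (IDR) analysis over the replicates. The peak strength used is the signal value deposited by the authors in each list. For the aligner, for the caller and for the threshold of the IDR step, the sources used here give nothing. Reads and control samples were not analysed here, so the depth per sample is unknown, and intervals (exact binomial, 95%) cover counting error only. Over whole replicate lists, replicates 2 and 3 shared 1 identical interval, with different signals, and the other pairs shared 0.

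Summits were placed by Ensembl release 115 gene models on the RefSeq sequence of the same assembly, in this order of classes: promoter (within 500 bp of a TSS), UTR, coding, other exon, intron, intergenic. Densities were compared by an exact conditional binomial test and shares by Fisher's exact test (two-sided), adjusted by the Benjamini-Hochberg method over 7 classes or 10 motifs and a threshold of 0.05. Replicates were compared on the 4351 strongest entries of their own lists by an exact sign-flip permutation test. Chromosome arm 2R was not compared. Scripts used Python 3.11.15, numpy 2.4.6, scipy 1.17.1 and matplotlib 3.10.9. The density test, the signal test and the motif search were checked on simulated data, and the other tests were not. Simulated peaks were placed independently of each other, so the check does not cover dependence between neighbouring peaks.

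The choice to describe the X peaks and the gene lists were made with earlier results of these data known, although the rule for the members uses position alone. Named genes are those at or nearest the 15 strongest X peaks, the 6 X genes with the most summits, roX1 and roX2, and of each list up to 4 members with a summit by signal and up to 2 without by span; others were named after their values were seen, as were the tests on intron hosts, intron order and peaks per Mb of intron, and the CAGTG core. Alternatives were promoter summits alone, summits outside promoters alone, the midpoint of the peak in place of the summit, other windows and limits, and merged summits. Others were the stronger part of the list, single arms or replicates left out, and the dm3 list for density.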

Additional observations from a re-analysis of the deposited data

How the results depend on the processing

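The intron share was 10.3 to 15.5 percentage points higher on X under all 12 alternatives, the promoter share 6.30 to 10.7 points lower under all 12, and peaks per Mb of intron 1.43 to 1.58 times the arms under all 11, each past the test. Peak density passed in 10 of 11, with ratios of 1.09 to 1.20, the exception being the 2175 strongest peaks (ratio 1.10). In the dm3 list, set against dm3 lengths, the ratio was also lower than in dm6, at 1.10 (exact binomial test, p = 0.0155). The part of the assembly in that change was not tested. The difference in coding genes with a summit was 4.24 points inside the span only and 4.14 by nearest TSS only, both past the test. It was 1.48 points without 2L, 1.78 in the mean of the replicates and 1.43 to 1.96 without a replicate. None of these passed the test when judged by the highest p of the replicates used. In the 2175 strongest peaks the difference was -0.273 points. That in gaps was 2.94 points at a limit of 5000 bp, 2.82 without 3R, 2.78 in the mean of the replicates and 2.02 to 3.45 without a replicate, judged likewise and not past the test; replicate 2 by itself passed for both. The share above the median signal turned to 0.485 points at summits outside promoters and 0.276 in the mean of the replicates. It ranged from -0.915 to 0.890 without a replicate. In windows of 250 bp to either side 2 motifs passed and the Hox core turned to -3.79 points. The GA repeat turned to -0.210 points in windows of 50 bp to either side, -0.310 to 0.591 without a replicate (below 0 without replicate 1) and -0.362 over flanks, and the BEAF-32 core to -1.37 points over flanks. The cause of these changes was not tested. No paired analysis was possible because there is only 1 group of samples, so no replicate numbers pair samples across groups; X and the arms were compared within each replicate. Read depth is unknown, and 3 replicates allow no sign-flip p below 0.25.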

Other observations

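The 14 X summits in 3′ UTRs were named after their values were seen. After CG7872, the strongest was in APC7, a subunit of the anaphase-promoting complex, with a signal of 461. NetB, an axon guidance cue, had 225, Hex-A, a hexokinase, had 109, and Hr4 had 125. The remaining ones, in stas, Ssu72, REG, raskol, Crag, nocte, CG14440, BTBD9 and CG7378, lay between 106 and 265. Some recurred poorly: the stas summit had no match in replicate 3, and those in Hex-A and CG7378 ranked 13212 and 10711 in replicate 1.

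Transposable elements held 2 of the 877 X summits and 5 of the 2679 arm summits. The mean GC content of the summit windows was 39.4% on X and 39.0% on the arms, and 37.4% and 38.0% for intronic ones.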
